A study of Danio rerio with 6 samples.

Results

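Messenger RNA levels of 77 genes for enzymes and readers of histone and DNA methylation were examined in the regenerating caudal fin of zebrafish given Galloflavin or its solvent. The genes were those of the 19822 in the deposited table whose symbol begins with a name of the lysine demethylase (kdm), lysine methyltransferase (kmt and setd), polycomb (ezh, eed, suz12), DNA methylation (dnmt, tet, uhrf1, cdca7) or PHD finger protein (phf) families. They comprised 20 demethylase, 20 methyltransferase, 5 polycomb, 13 DNA methylation and 19 phf genes. All 77 had a mean normalised count of at least 1 over the 6 libraries, the level required for testing, as did 15806 genes in all. The name does not fix the function, and the families include Setd3, which methylates actin, and Phf5a, a splicing factor subunit.

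Galloflavin is an inhibitor of lactate dehydrogenase, the enzyme that interconverts pyruvate and lactate. The Galloflavin group had been injected into the body cavity with 0.12 mg per g in DMSO, and the DMSO group with DMSO alone. Both groups were wild-type AB fish of 3 to 12 months, as many males as females, kept at 28 °C before amputation under lidocaine and MS-222 and at 33 °C afterwards. Fins were taken at 24 h as the regenerate with the adjoining ray segment. Each library came from 10 pooled fins, with 3 libraries per treatment, and by the labels every batch (B1, B2, B3) contributed 1 Galloflavin and 1 DMSO library. The drug was given to the whole fish, and the tissue mixes epidermis, mesenchyme, bone and blood cells.

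Methyl groups on lysines of histone H3 and H4 are written by methyltransferases, removed by demethylases and read by protein modules such as the PHD finger. Trimethylation of H3K4 marks active promoters, while polycomb repressive complex 2 silences genes by methylating H3K27. DNA methylation is set by Dnmt3 enzymes, copied after replication by Dnmt1 with Uhrf1, and oxidised by Tet enzymes as the first step of its removal. Many repressed developmental genes carry such marks, and H3K27 demethylation by a Kdm6b enzyme has been linked to zebrafish fin regeneration.

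Gene reads numbered 17712157 to 29596335 per library, and both B3 libraries were the shallowest. The B3 libraries also stood apart: over all tested genes their deviations from the group means correlated with each other at 0.49. With libraries of the other treatment from B1 and B2 they correlated at -0.39 to -0.23. Deviations from a mean cancel out within a group, so these negative values follow in part from the 0.49. Within-batch differences are therefore given beside the results. The smallest read counts of a member in any library were 16 reads for tet1, 17 for dnmt3bb.2 and 35 for dnmt3aa. Defining markers were detected for basal epidermis, where krt5 held 51797 to 70772 normalised counts, for fin mesenchyme, where prrx1a held 157 to 189, and for osteoblasts, where sp7 held 5.75 to 10.5. Nothing in the labels says whether the pools of a batch shared more than the batch number.

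More of these genes were lower with Galloflavin than higher. Most phf (16 of 19), methyltransferase (14 of 20), DNA methylation (10 of 13) and polycomb (4 of 5) genes had a fold change below 0, as did 7 of 20 demethylase genes, and the median was lowest for DNA methylation, at -0.31. Of the 77 genes, 51 had a log2 fold change below 0 and 26 above, with a median of -0.09, against a median of -0.004 and 50.9% below 0 over all tested genes. In limma, 0 of the 77 passed an adjusted p of 0.05, as did 0 of all 15806 genes (0%), so every difference below is a value that did not pass this test unless another test is named. At an unadjusted p under 0.05, 15 members were lower and 1 was higher. The background was 3.03% of all tested genes lower and 4.18% higher. In 18 members all Galloflavin libraries lay below all DMSO libraries, and in 1 member, kdm7ab, all lay above (6.47% and 6.97% of all tested genes). The Galloflavin library was the lower one in all 3 batches for 28 members and the higher one for 3, where these shares were 16.4% and 17% of all tested genes.

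The count of 15 changed when libraries were left out. It was 18, 8 and 11 without Galloflavin B1, B2 and B3, and 7, 7 and 13 without DMSO B1, B2 and B3. Without batch B1, B2 or B3 it was 9, 2 and 10. Fewer libraries also weaken the test, so a lower count does not show that a single library set it. All 15 genes remained below 0 under each alternative, but they were picked as lower in these same libraries, so this adds no support. On whole reads recovered from the values, edgeR called 0 members and 0 genes, with 15 members lower and 2 higher at an unadjusted p under 0.05. DESeq2 called 2 members, cdca7a and dnmt3ba, both lower, where 0.158% of all tested genes were called lower and 0.525% in either direction. With batch as a block DESeq2 called cdca7a alone among the members (0.152% of all tested genes called lower, 0.943% in either direction).

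**Figure D1:**
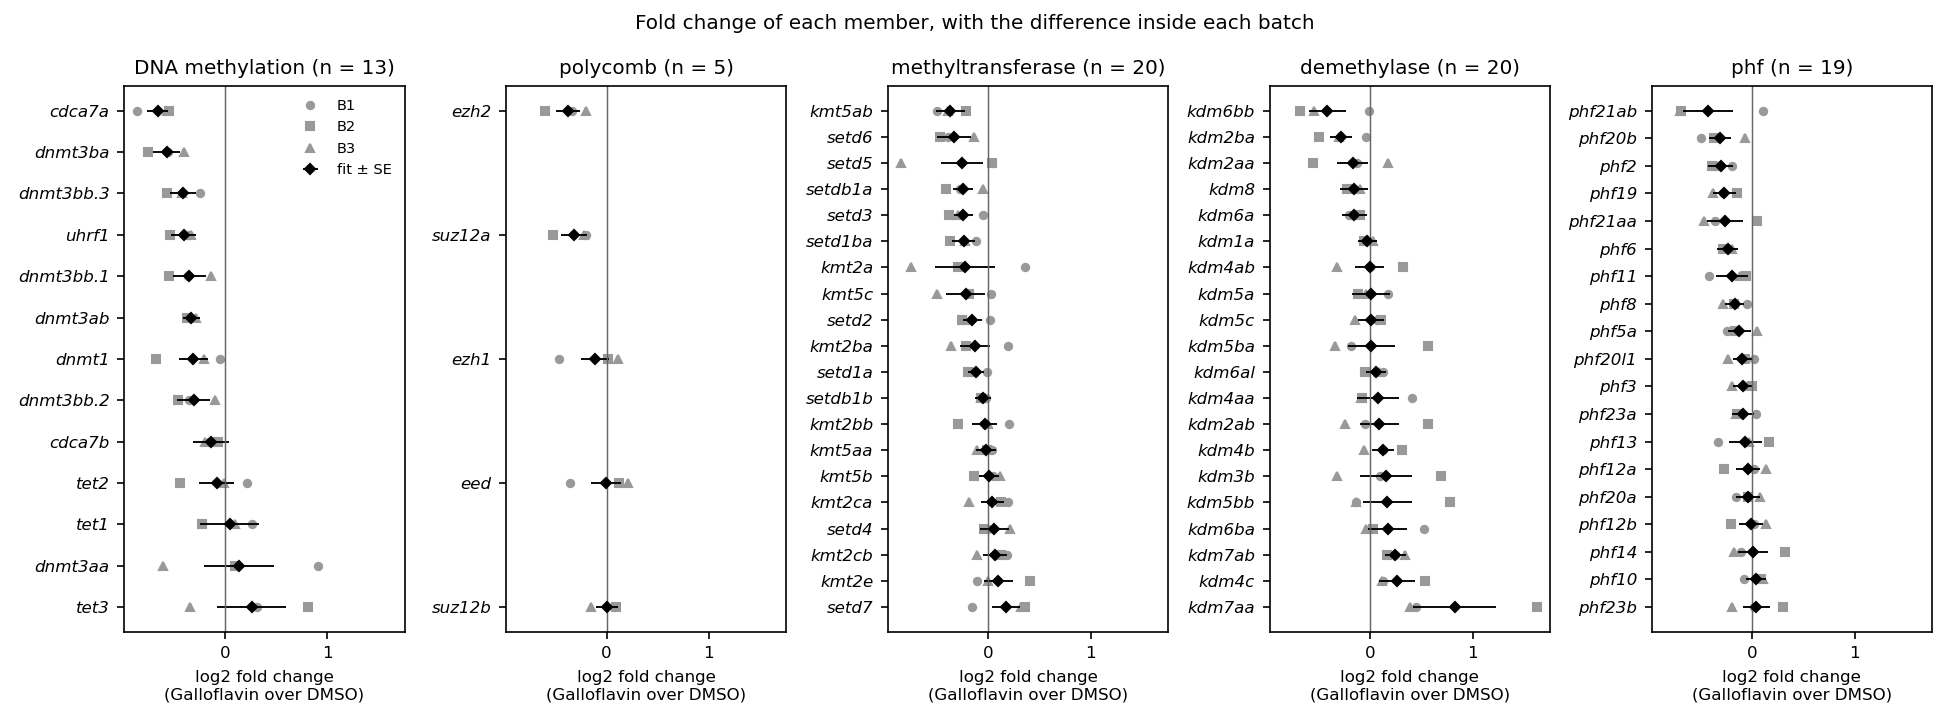
Log2 fold change of each of the 77 genes, Galloflavin over DMSO on the log2(normalised count + 1) scale (x axis), by class. Black diamonds with bars are the limma estimate and its SE, and grey symbols are the difference within batches B1, B2 and B3. The 3 grey symbols of cdca7a, dnmt3ab, dnmt3ba and uhrf1 all lie left of 0, while those of kdm7aa spread from 0.39 to 1.63.

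Of the 13 DNA methylation genes 10 were lower with Galloflavin, with a median log2 fold change of -0.31. The medians within batches were -0.24 in B1, -0.46 in B2 and -0.28 in B3, and the Galloflavin library was the lower one in all 3 batches for 9 of the genes. Among all tested genes, 6.47% were lower without overlap and 3.03% were lower at an unadjusted p under 0.05. Of the 13 genes, 6 were lower without overlap and 5 were lower at that p. The 6 genes without overlap were all of the maintenance and de novo arms. In these arms cdca7b, dnmt1, dnmt3aa and dnmt3bb.1 had overlapping groups, as the tet genes did, and dnmt3aa was above 0.

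The lowest log2 fold change of all 77 genes was that of cdca7a (ENSDARG00000077620). Cdca7 is a zinc finger protein that, in mammals and frogs, recruits the chromatin remodeller Hells, which maintains DNA methylation. Normalised counts of cdca7a were 18.6, 20.1 and 19.3 in Galloflavin B1, B2 and B3, against 34.6, 29.8 and 29.1 in DMSO B1, B2 and B3. All Galloflavin libraries were below all DMSO libraries, and the Galloflavin values lay close together. The means were 19.4 ± 0.752 with Galloflavin and 31.2 ± 2.99 with DMSO (SD, n = 3 each), a difference of -37.9%. On the log2 scale this was -0.66 ± 0.10 (SE, as after every log2 fold change here; adjusted p = 0.381 in limma). The adjusted p was 0.000334 in DESeq2, 0.0172 in DESeq2 with batch as a block and 0.378 in edgeR. The second copy, cdca7b, had 8.95, 9.17 and 12.0 with Galloflavin and 10.1, 9.61 and 13.8 with DMSO, so that its groups overlapped (-0.14 ± 0.18).

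Hells itself, a gene outside the 77, had 20.8, 19.0 and 21.7 normalised counts with Galloflavin and 29.8, 28.8 and 25.1 with DMSO. Its groups did not overlap either (-0.43 ± 0.11, limma adjusted p = 0.602). The gene uhrf1, whose product binds hemimethylated DNA at replication forks and brings in Dnmt1, had 63.8, 57.5 and 53.1 with Galloflavin, against 81.3, 83.5 and 67.2 with DMSO. All Galloflavin values were below all DMSO values (-0.40 ± 0.12, limma adjusted p = 0.602), with differences of -0.34, -0.53 and -0.33 within B1, B2 and B3. The maintenance methyltransferase gene dnmt1 had 81.9, 58.6 and 66.6 with Galloflavin and 84.7, 94.2 and 77.0 with DMSO. Its groups overlapped, since Galloflavin B1 lay above DMSO B3 and the difference within B1 was -0.05 (-0.31 ± 0.14 overall).

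The de novo methyltransferase genes were lower in 5 of 6 cases. The gene dnmt3ba had 19.8, 17.5 and 17.3 normalised counts with Galloflavin, against 29.6, 30.0 and 23.1 with DMSO, without overlap (-0.57 ± 0.13, limma adjusted p = 0.602, DESeq2 adjusted p = 0.0377, and 0.0726 with batch as a block). For dnmt3ab the values were 22.5, 21.5 and 22.8 with Galloflavin and 28.6, 28.0 and 27.8 with DMSO, the narrowest spread within groups among the dnmt genes relative to its level (-0.32 ± 0.09). Its paralog dnmt3aa was at low counts and mixed, with 6.21, 4.98 and 1.90 with Galloflavin and 2.84, 4.57 and 3.39 with DMSO. The genes dnmt3bb.1, dnmt3bb.2 and dnmt3bb.3 lie next to each other in RefSeq's gene order (assembly GRCz12tu), so that reads shared among similar copies could be split between them. Their log2 fold changes were -0.35 ± 0.16, -0.30 ± 0.16 and -0.41 ± 0.12. In dnmt3bb.2 and dnmt3bb.3 the groups did not overlap, but dnmt3bb.2 was near 1 normalised count (0.916 ± 0.129 with Galloflavin, 1.37 ± 0.276 with DMSO).

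The tet genes, which encode the dioxygenases that oxidise methylated cytosine, had overlapping groups in all 3 cases. The gene tet3 had 55.2, 69.3 and 25.6 with Galloflavin and 44.1, 39.0 and 32.6 with DMSO, so that Galloflavin B2 was the highest library and Galloflavin B3 the lowest (0.26 ± 0.34). The values of tet1 (0.05 ± 0.29) and tet2 (-0.08 ± 0.17) were also mixed over batches.

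**Figure D2:**
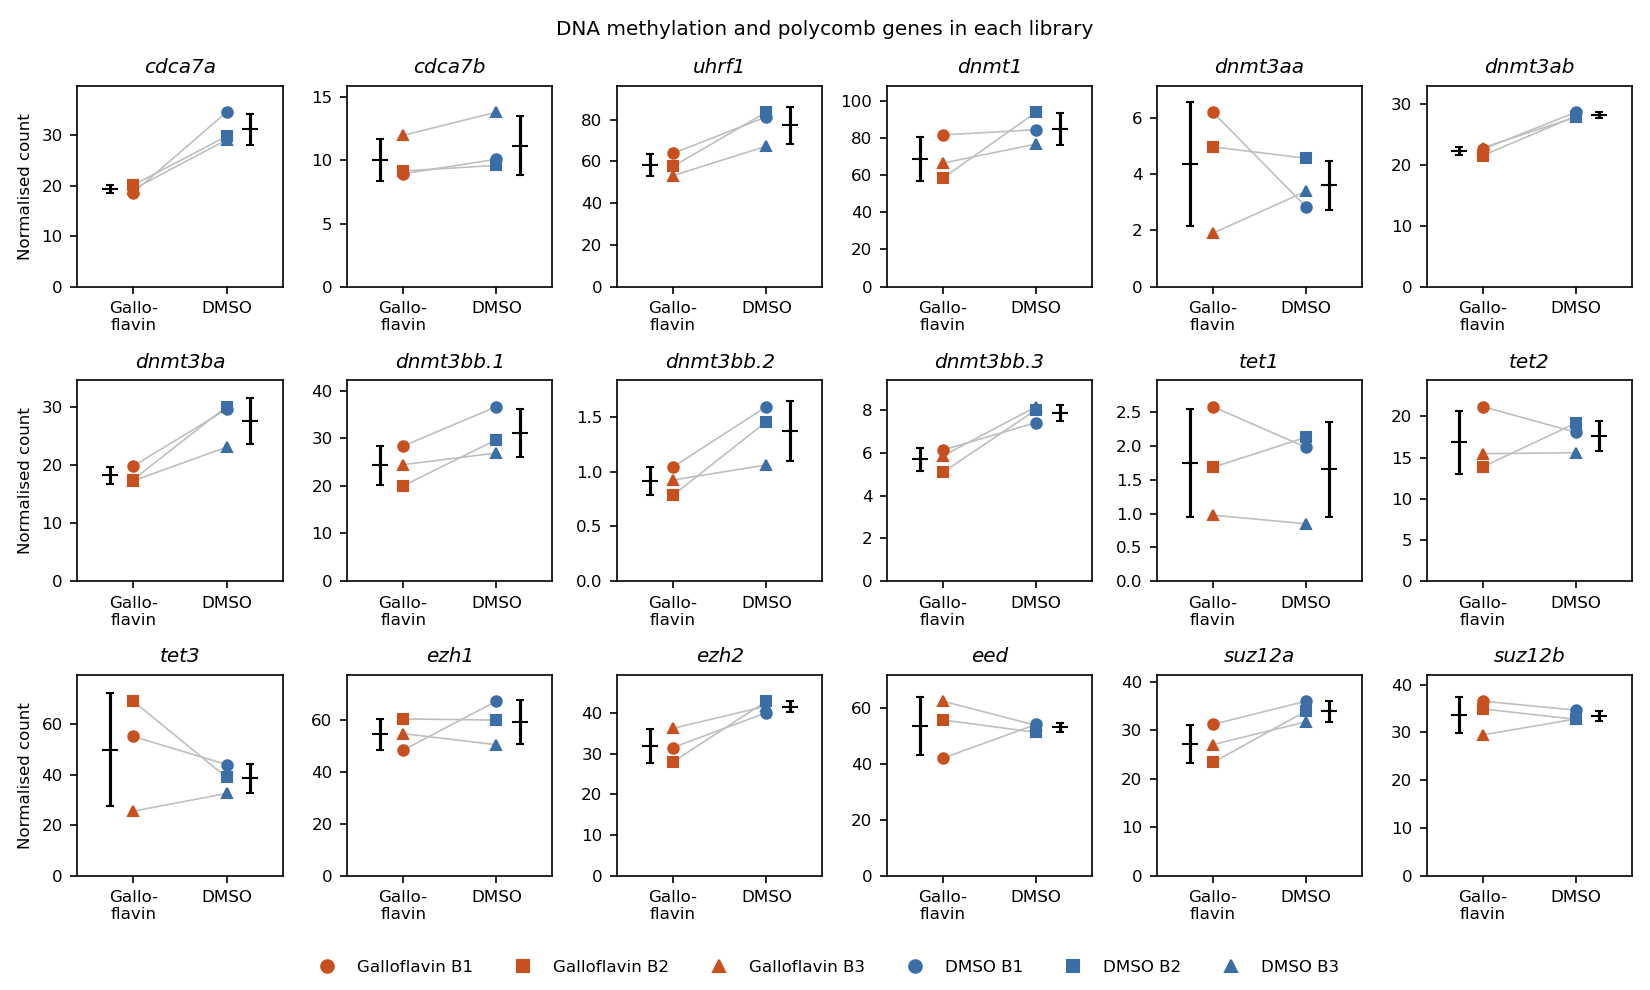
Normalised counts (y axis, from 0) of the 13 DNA methylation and 5 polycomb genes in each library. Coloured points are libraries, with Galloflavin left and DMSO right, grey lines join libraries of the same batch, and black bars are the mean ± SD of 3 libraries. In cdca7a, uhrf1, dnmt3ab, dnmt3ba, dnmt3bb.2, dnmt3bb.3, ezh2 and suz12a the Galloflavin points lie below the DMSO points without overlap.

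Polycomb repressive complex 2 contains Ezh2 or Ezh1 as the enzyme, Suz12 as the scaffold and Eed as the subunit that binds methylated H3K27. Of its 5 genes, ezh2 and suz12a were lower in every batch and without overlap, and ezh1, eed and suz12b had overlapping groups. Among all tested genes, 16.4% were lower in all 3 batches and 6.47% were lower without overlap. The values of ezh2 (ENSDARG00000010571) were 31.5, 28.0 and 36.2 with Galloflavin, against 40.0, 42.9 and 41.7 with DMSO (-0.38 ± 0.11, limma adjusted p = 0.602). All 3 Galloflavin libraries were below all DMSO libraries, with the smallest difference, -0.20, within B3. The values of suz12a were 31.2, 23.3 and 27.0 with Galloflavin and 36.0, 33.9 and 31.8 with DMSO (-0.32 ± 0.13, limma adjusted p = 0.684). The separation is narrow here, since Galloflavin B1 and DMSO B3 are the neighbours.

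The other catalytic gene, ezh1, averaged 54.6 ± 6.02 with Galloflavin and 59.3 ± 8.44 with DMSO (-0.11 ± 0.13), and its difference was -0.47 within B1, 0.01 within B2 and 0.12 within B3. For eed the averages were 53.6 ± 10.4 with Galloflavin and 53.2 ± 1.55 with DMSO, with a difference of -0.36 within B1 and positive ones in B2 and B3. Among the PHD finger genes, phf19 encodes a polycomb-like partner that binds H3K36 methylation. It had 13.3, 14.8 and 12.2 with Galloflavin and 16.4, 16.6 and 16.1 with DMSO, without overlap (-0.27 ± 0.11). Of 29 tested polycomb partner genes, 1 was lower and 1 higher at an unadjusted p under 0.05, with a median of -0.03. These shares, 3.45% each, were near the 3.03% lower and 4.18% higher among all tested genes. The genes were rybpa, a subunit of a polycomb repressive complex 1 variant (-0.37 ± 0.11), and phc2b, a polyhomeotic gene (0.42 ± 0.15). Without overlap, 5 of the 29 were lower (17.2%) and 2 higher (6.90%), against 6.47% and 6.97% of all tested genes. In all 3 batches, 8 were lower (27.6%) and 3 higher (10.3%), against 16.4% and 17%.

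The 20 methyltransferase genes had a median log2 fold change of -0.13, with 14 below 0. At an unadjusted p under 0.05, 3 were lower and 0 higher (3.03% and 4.18% of all tested genes). Within batches the medians were 0.01 in B1, -0.20 in B2 and -0.14 in B3, so that B1 did not show a common direction. Without Galloflavin B3 the median was -0.05. The gene kmt5ab, a copy of the enzyme gene for H4K20 monomethylation, had 8.33, 10.1 and 10.9 with Galloflavin, against 12.2, 11.9 and 14.7 with DMSO (-0.37 ± 0.14). Each Galloflavin value was below each DMSO value. The gene setdb1a, for an enzyme that adds H3K9 trimethylation, had 30.6, 28.5 and 31.7 with Galloflavin and 37.3, 38.2 and 32.9 with DMSO (-0.25 ± 0.10). These groups did not overlap, but the difference within B3 was only -0.05.

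The actin methyltransferase gene setd3 was also lower without overlap, at 32.3 ± 2.47 with Galloflavin and 38.4 ± 1.78 with DMSO (-0.24 ± 0.10). Among the H3K4 methyltransferase genes all but setd1a had overlapping groups. They lay at -0.24 ± 0.11 for setd1ba, -0.12 ± 0.08 for setd1a, -0.23 ± 0.29 for kmt2a and 0.06 ± 0.12 for kmt2cb, and at 0.10 ± 0.14 for their relative kmt2e. The highest values of the class were those of setd7 (0.17 ± 0.14) and kmt2e, neither with an unadjusted p under 0.05, and setd4 stood at 0.06 ± 0.14. In setd5, the Galloflavin B3 library was at 9.61 and the other 5 libraries were at 14.9 to 18.1.

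The 20 demethylase genes were split, with 13 above 0 and 7 below and a median of 0.03, and single Galloflavin libraries held many of their extreme values. Galloflavin B2 was the highest of the 6 libraries for 9 of the 20 genes, against 18.8% of all tested genes, and for 3 other members. Galloflavin B3 was the lowest library for 10 of the 20, against 21.5% of all tested genes. It was the lowest for 31 of all 77 members, so this was not particular to the demethylases. The class mean on the centred log2 scale was 0.05, 0.20 and -0.18 in Galloflavin B1, B2 and B3, and -0.01, 0.03 and -0.09 in DMSO B1, B2 and B3. The DMSO libraries thus lay between Galloflavin B2 and Galloflavin B3.

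The gene kdm7aa, whose product removes dimethyl marks from H3K9 and H3K27, had 35.1, 63.4 and 19.0 with Galloflavin, against 25.5, 19.8 and 14.3 with DMSO. The Galloflavin library was the higher one in every batch, but Galloflavin B3 lay below 2 of the DMSO libraries (0.82 ± 0.41, limma adjusted p = 0.714). In Galloflavin B2 it stood at 3.21 times the median of the other 5 libraries. The H3K4 demethylase gene kdm5bb had 169, 282 and 143 with Galloflavin and 186, 164 and 158 with DMSO. Only Galloflavin B2 was above all DMSO libraries, at 1.72 times the median of the other 5. The same ratio was 1.62 for kdm3b, 1.57 for kdm5ba, 1.47 for kdm4c and 1.47 for kdm2ab, and 1.78 for tet3 outside the class.

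Outside the 77, ldha and pgk1, which encode lactate dehydrogenase and the glycolytic phosphoglycerate kinase, were also highest in Galloflavin B2. Normalised counts of ldha were 224, 728 and 74.9 in Galloflavin B1, B2 and B3, against 177, 98.5 and 71.7 in DMSO B1, B2 and B3. Those of pgk1 were 338, 775 and 248 with Galloflavin and 305, 244 and 224 with DMSO. Both were picked for these values, and their part in the demethylase values was not tested.

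The single member higher with Galloflavin without overlap was kdm7ab, the copy of kdm7aa, with 14.9, 14.3 and 15.7 against 12.4, 12.7 and 12.2 with DMSO (0.25 ± 0.10, limma adjusted p = 0.684). Its Galloflavin B2 value was the lowest of its group, unlike that of kdm7aa. The only kdm gene lower without overlap was kdm2ba, whose product removes H3K36 methylation and brings polycomb proteins to CpG islands. It had 47.3, 38.4 and 41.2 with Galloflavin and 48.6, 54.9 and 51.1 with DMSO (-0.28 ± 0.11). The H3K27 demethylase gene kdm6bb was lower in every batch, at 35.1, 27.9 and 22.9 with Galloflavin and 35.5, 45.6 and 34.0 with DMSO. Its groups overlapped through B1, where the libraries were nearly equal (-0.42 ± 0.18, limma adjusted p = 0.69). Among the rest, kdm1a, which removes H3K4 mono- and dimethylation, was at 129 ± 10.4 with Galloflavin and 132 ± 6.18 with DMSO (-0.03 ± 0.09). The other demethylase genes lay between -0.17 ± 0.15 for kdm2aa and 0.26 ± 0.17 for kdm4c, with kdm6a at -0.16 ± 0.12 and kdm4b at 0.12 ± 0.11, all with overlapping groups.

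**Figure D3:**
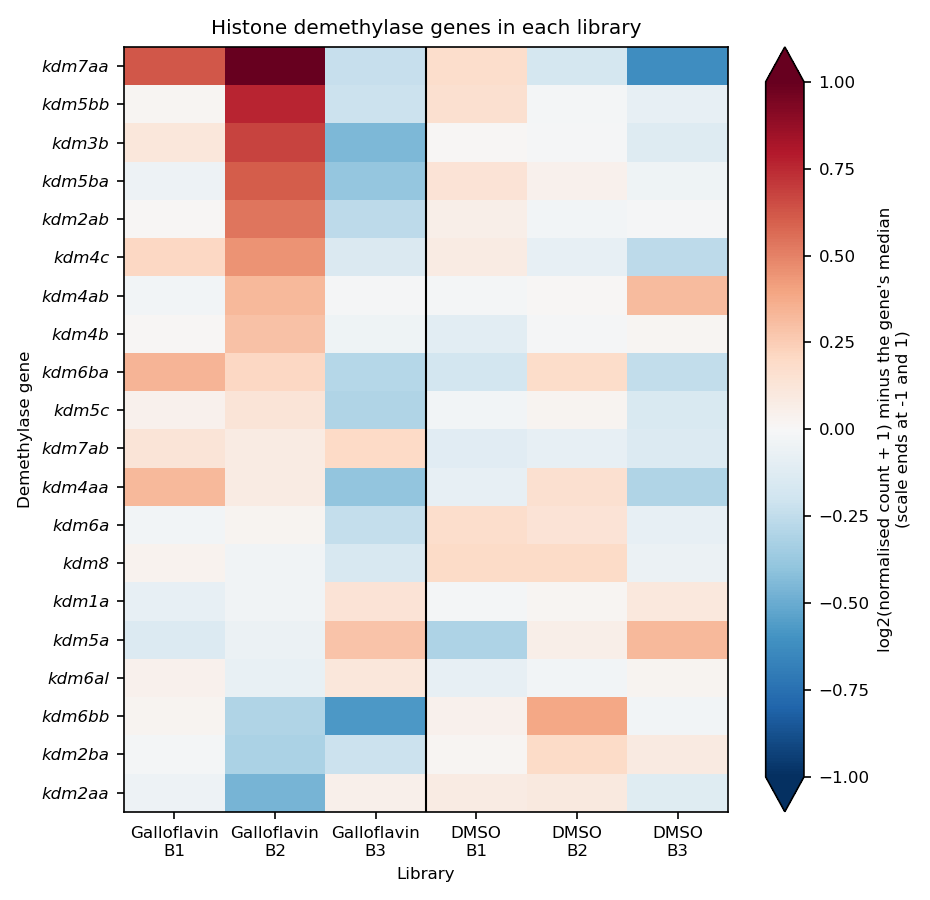
The 20 histone demethylase genes (rows, ordered by Galloflavin B2) in each library (columns, Galloflavin left of the line and DMSO right), coloured by log2(normalised count + 1) minus the gene's median over the 6 libraries. Galloflavin B2 is the highest library for 9 genes and Galloflavin B3 the lowest for 10.

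The 19 phf genes had 16 members below 0 and a median of -0.10. At an unadjusted p under 0.05, 4 were lower and 0 higher (3.03% and 4.18% of all tested genes). Without overlap, 5 were lower (6.47% of all tested genes). The gene phf20b, for a reader in the histone acetyltransferase complex NSL, had 36.6, 36.6 and 41.8 with Galloflavin and 52.1, 47.9 and 43.9 with DMSO (-0.31 ± 0.10, limma adjusted p = 0.636). Its groups did not overlap, and the difference shrank to -0.07 within B3. The gene phf2 encodes a relative of the Kdm7 demethylases and had 27.5, 27.0 and 22.6 with Galloflavin, against 31.6, 35.8 and 28.9 with DMSO (-0.31 ± 0.12). Its close relative phf8 had 42.7, 38.9 and 37.0 with Galloflavin and 44.3, 44.1 and 45.4 with DMSO, again without overlap (-0.17 ± 0.09). Neither followed kdm7aa and kdm7ab in direction.

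The gene phf6, whose human counterpart is mutated in leukaemia and in a developmental syndrome, averaged 11.4 ± 0.505 with Galloflavin and 13.7 ± 0.236 with DMSO (-0.24 ± 0.10). It had nearly the same difference in each batch, -0.23, -0.29 and -0.20. The genes phf10, a subunit of a nucleosome remodelling complex (0.03 ± 0.10), phf14 (0.01 ± 0.15) and phf23b (0.04 ± 0.13) were the 3 above 0. The splicing factor gene phf5a stood at -0.13 ± 0.11. The lowest fold change of the class was that of phf21ab, at 6.58 ± 2.09 with Galloflavin and 9.08 ± 2.16 with DMSO, where the groups overlapped (-0.43 ± 0.24).

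Zebrafish carry many of these genes as 2 copies, and 16 pairs had both copies among the 77. The log2 ratio of the copies within each library was compared between the groups with an exact two-sided permutation test, which with 3 libraries a group cannot give less than 0.1. The ratio did not overlap between the groups in 5 of the 16 pairs, each with the smallest p possible, 0.1 (0.32 adjusted over the 16 pairs). Where treatment made no difference, a p this small would be reached with a frequency of 0.1, and other pairs of genes were not counted. The pair kdm6ba and kdm6bb had the largest shift. Its log2 ratio was 2.97, 3.16 and 2.94 with Galloflavin, against 2.43, 2.45 and 2.43 with DMSO, a difference of 0.59. The DMSO libraries were nearly identical in this ratio, although kdm6ba itself ranged over 182 to 282 normalised counts in the 6 libraries and did not separate the groups (0.17 ± 0.19).

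The suz12a to suz12b ratio was -0.22, -0.56 and -0.12 with Galloflavin and 0.05, 0.05 and -0.05 with DMSO, and suz12b itself averaged 33.6 ± 3.70 with Galloflavin and 33.4 ± 1.08 with DMSO. For kmt5aa to kmt5ab the mean ratio was 2.68 ± 0.13 with Galloflavin and 2.33 ± 0.07 with DMSO, and for phf20a to phf20b it was -2.19 ± 0.13 with Galloflavin and -2.47 ± 0.10 with DMSO. For kdm5ba to kdm5bb it was -0.58 ± 0.05 with Galloflavin and -0.42 ± 0.04 with DMSO, a shift in ratio while both copies were high in Galloflavin B2. The ratio of cdca7a to cdca7b overlapped between the groups (difference -0.52, exact permutation p = 0.2), as did that of dnmt3aa to dnmt3ab (0.46, exact permutation p = 0.4). Of the 5 pairs that separated, only suz12a and suz12b meet the rule for naming, and the other 4 are given because of their values. The copies suz12a, kmt5ab and phf20b also separated the groups alone. Their other copies lay at 0.005 ± 0.11 for suz12b, -0.03 ± 0.10 for kmt5aa and -0.04 ± 0.12 for phf20a.

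**Figure D4:**
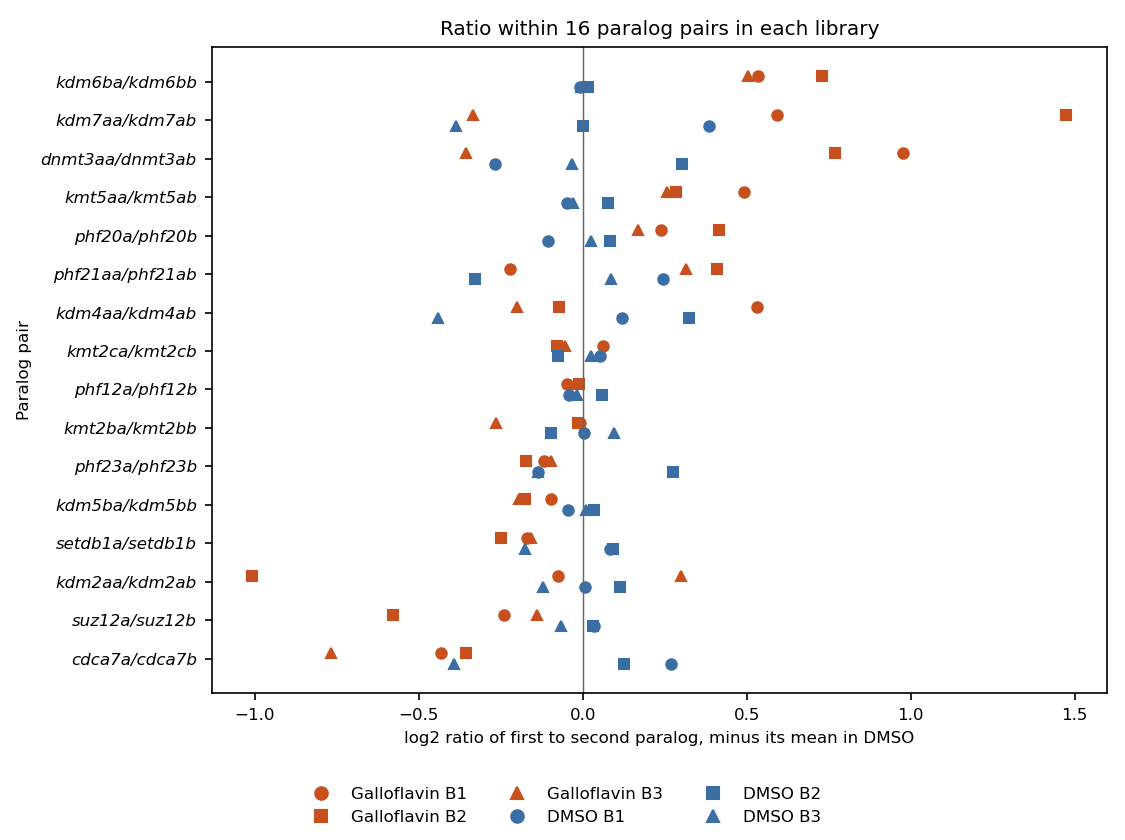
Log2 ratio of the first to the second copy in 16 pairs, minus the mean ratio in DMSO (x axis), in each library, with Galloflavin above DMSO in each row. The Galloflavin points of kdm6ba/kdm6bb lie on average 0.59 above the DMSO mean, and 5 pairs have no overlap between the groups.

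Between batches, 0 of the 77 genes passed limma's F test at an adjusted p of 0.05, where 5 of all tested genes did (0.0316%). That count of 5 was 210 without Galloflavin B1, 285 without DMSO B1 and 51 without DMSO B2, and 0 without Galloflavin B2, Galloflavin B3 or DMSO B3, with 0 members each time. At an unadjusted p under 0.05 there were 5 members, or 6.49%, and 12.6% of all tested genes. These 5 were kdm5a, tet1, kdm7aa, tet3 and cdca7b. In B3 the difference from the mean of B1 and B2 was 0.41 for kdm5a, an H3K4 demethylase gene, and 0.41 for cdca7b, and it was -0.69 for tet1, -0.79 for tet3 and -0.94 for kdm7aa. The demethylase class lay lower in B3, with a median difference of -0.25, against -0.01 over all tested genes. The genes cdca7a (-0.07), dnmt3ab (0.01) and setd3 (-0.003) were among those whose level hardly differed between B3 and the other batches.

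Genes of the wider pathway that carry other family names were counted in the same fit. Among all tested genes, 3.03% were lower and 4.18% higher at an unadjusted p under 0.05. Of 15 partner genes of the H3K4 methyltransferase complexes, 13 were below 0 (median -0.06) and 2 were lower at an unadjusted p under 0.05. These were hcfc1a, at 120.2 ± 8.52 with Galloflavin and 163 ± 6.30 with DMSO (-0.44 ± 0.09, limma adjusted p = 0.54), and its copy hcfc1b (-0.28 ± 0.10). Of 22 other lysine methyltransferase genes, 16 were below 0 (median -0.10) and 4 lower and 0 higher at that p. They include nsd2, for an H3K36 dimethyltransferase, at 33.6, 32.6 and 27.6 with Galloflavin and 44.6, 46.4 and 38.8 with DMSO (-0.46 ± 0.12), and the H3K9 methyltransferase gene ehmt1a (-0.29 ± 0.09).

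Among all tested genes, 3.03% were lower at an unadjusted p under 0.05. Of 22 tested genes listed with partners and readers of DNA methylation, 1 (4.55%) was lower at that p, hells, and 0 were higher (median -0.10). The deubiquitinase gene usp7, a partner of Dnmt1 and Uhrf1, followed at -0.21 ± 0.09. The list also held trdmt1, gadd45 genes, idh1 and idh2. Both idh1 and idh2 were counted again with the enzymes of the methyl donor and 2-oxoglutarate supply below. Without overlap, 4 of the 22 were lower (18.2%) and 0 higher, against 6.47% and 6.97% of all tested genes. In all 3 batches, 7 were lower (31.8%) and 2 higher (9.09%), against 16.4% and 17%. Of 8 arginine methyltransferase genes and partners, 1 was lower at an unadjusted p under 0.05, prmt9 (-0.47 ± 0.14). Their median of -0.19 was -0.49 within B2 and 0.08 within B3, and prmt7 stood at -0.22 ± 0.13. Of 9 H3K9 methyl readers 1 was lower at that p, cdyl (-0.38 ± 0.16), and cbx1a stood at -0.20 ± 0.10 (median -0.10). Of 19 enzymes of the methyl donor and of 2-oxoglutarate supply, 0 had an unadjusted p under 0.05, with a median of -0.06, ogdhb at -0.25 ± 0.11 and mtrr at -0.20 ± 0.10.

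Some of the lower members, among them uhrf1, dnmt1, ezh2, kmt5ab and cdca7a, have mammalian counterparts that are transcribed mainly in dividing cells. The second copies kmt5aa (-0.03 ± 0.10) and cdca7b (-0.14 ± 0.18) had overlapping groups. In these libraries 42 of 45 DNA replication genes were below 0, with a median of -0.21 and 14 lower at an unadjusted p under 0.05. So were 38 of 38 mitosis genes (-0.24, 7 lower). Among all tested genes, 50.9% were below 0 and 3.03% lower at that p. Without overlap, 21 of the replication genes (46.7%) and 9 of the mitosis genes (23.7%) were lower, against 6.47% of all tested genes. In all 3 batches, 33 replication genes (73.3%) and 33 mitosis genes (86.8%) were lower, against 16.4% of all tested genes. For the 13 DNA methylation genes these shares were 46.2% and 69.2%, near those of the replication genes. The centred mean of the replication genes was -0.16, -0.20 and 0.003 in Galloflavin B1, B2 and B3, and 0.07, 0.13 and 0.16 in DMSO B1, B2 and B3. Relative to that mean, cdca7a was lower without overlap, with a difference of -0.42 on the log2 scale. The relative difference was -0.17 for dnmt3bb.3 and -0.14 for ezh2, both without overlap. In dnmt3bb.3 the separation was very narrow, with Galloflavin B1 at -1.665 and DMSO B1 at -1.660. The relative difference was -0.33 for dnmt3ba, -0.16 for uhrf1, -0.08 for dnmt3ab and for suz12a and -0.07 for dnmt1, all with overlap. The replication mean itself had a log2 fold change of -0.24, so an unchanged member rises relative to it. The share of all tested genes without overlap after this subtraction was not computed, so these separations have no background beside them. The relative scale was computed only for the 41 members named by rule. Of those, kdm7ab (0.49), setd7 (0.41), kdm4b (0.36), kmt2e (0.34), setd4 (0.30) and phf10 (0.27) were higher without overlap. Except for kdm7ab, the groups of these genes overlapped before the subtraction. For kmt2e the separation was very narrow, with Galloflavin B3 at 2.063 and DMSO B1 at 2.053. Whether the number of dividing cells set the level of any member was not tested.

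**Figure D5:**
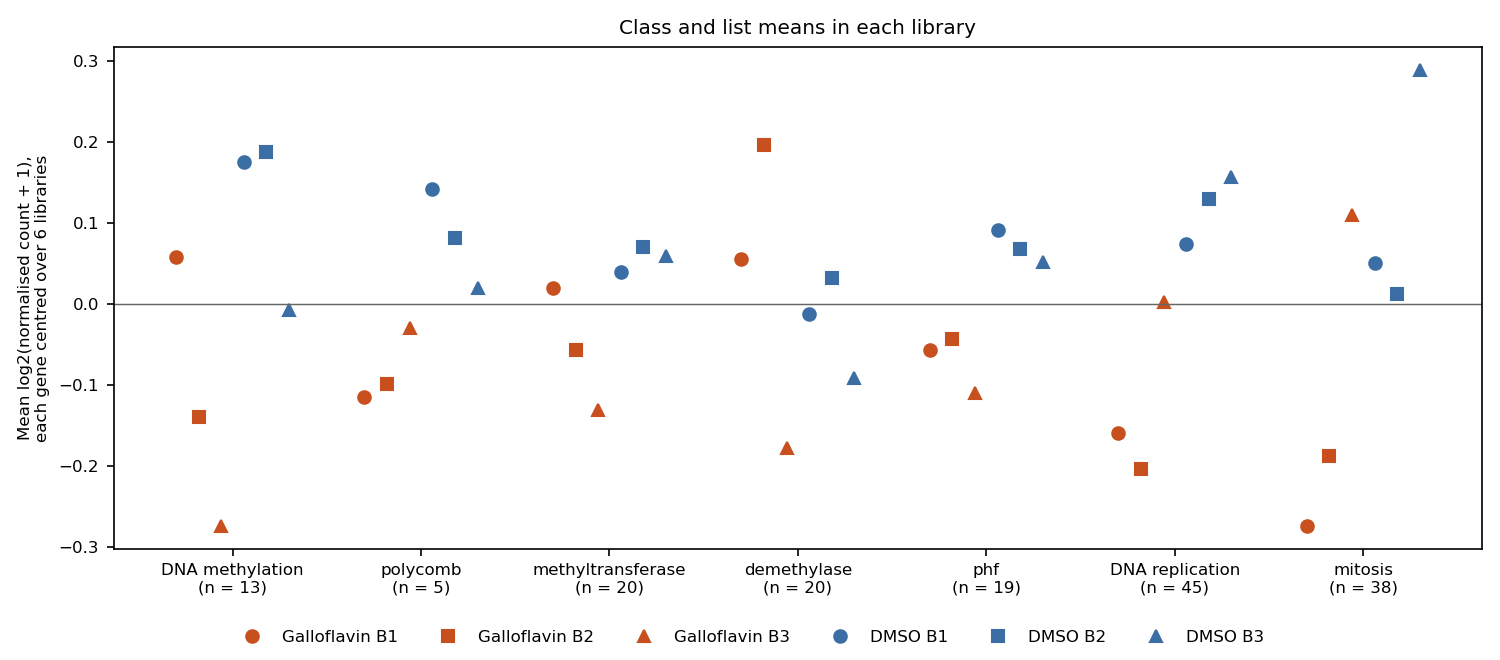
Mean log2(normalised count + 1) of each class of members and of the DNA replication and mitosis lists, each gene centred over the 6 libraries (y axis), with Galloflavin libraries left and DMSO libraries right in each column. The DNA methylation mean is lowest in Galloflavin B3 (-0.27) and the replication mean in Galloflavin B2 (-0.20). By gene, Galloflavin B3 was the lowest library for dnmt3aa, dnmt3ba, tet3 and uhrf1. Galloflavin B2 was the lowest for dnmt1, dnmt3ab, dnmt3bb.1, dnmt3bb.2, dnmt3bb.3 and tet2, so the class mean does not describe each gene.

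In pooled tissue, fewer cells of a type and less RNA per cell cannot be told apart. Of the cell type markers, 8 of 8 tested neutrophil genes were above 0 (median 0.49, but 0.02 within B3). At an unadjusted p under 0.05, 4 of these 8 were higher and 0 lower (4.18% and 3.03% of all tested genes). The summed level, with the untested cpa5 included, was 398 to 613 normalised counts with Galloflavin and 255 to 542 with DMSO. The largest part of it was mmp9, at 178 to 374 with Galloflavin and 104 to 332 with DMSO. Basal epidermis markers were above 0 in 8 of 10 cases (median 0.32), with sums of 70354 to 102257 with Galloflavin and 65340 to 97204 with DMSO. Most of each sum was krt5, at 52152, 67989 and 53971 with Galloflavin and 65999, 70772 and 51797 with DMSO. The 2 markers below 0 were krt5 and krt93. Of the 10, 3 were higher at an unadjusted p under 0.05 and 7 were higher in all 3 batches (4.18% and 17% of all tested genes). Macrophage markers summed to 4172 to 5392 with Galloflavin and 2940 to 3563 with DMSO, most of it apoeb, and 6 of 10 were below 0. Without overlap, 3 macrophage markers were higher and 2 lower (6.97% and 6.47% of all tested genes). Superficial and intermediate epidermis markers were above 0 in 5 of 7 cases (median 0.10). Of them 3 were higher without overlap (6.97% of all tested genes). Their sums were 7254 to 15151 with Galloflavin and 6398 to 14796 with DMSO. Pigment cell markers were below 0 in 5 of 6 cases (median -0.22), T and NK cell markers in 5 of 8 (-0.20) and fin mesenchyme markers in 10 of 14 (-0.08). The medians were 0.01 for osteoblasts, 0.13 for endothelium, -0.01 for erythrocytes and 0.17 for nerve. No marker in the table was at 0 in all libraries, and the part of these cells in the members' values was not tested.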

How the data were processed

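Poly(A)-selected RNA from 6 pools of 10 fins was made into stranded libraries, per the labels' protocols. The submitters' processing notes name STAR 2.7.10a and GRCz11. The sources used here do not give the counting program, the annotation, the use of strand or the normalization, so values of near-identical copies and overlapping genes are uncertain. The deposited signal is a normalised count per gene and library. Dividing each column by its own value of 1 read (0.0338 to 0.0543) made 100% of values whole reads (tolerance 0.01 of a read). TMM-scaled CPM computed from these reads were 0.997 to 1.005 times the deposited values.

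The main test was limma 3.58.1 (R 4.3.3; two-sided, with a trend in the prior variance) on log2(normalised count + 1), a scale that understates changes of low genes. Genes needed a mean of at least 1, and p-values were adjusted by Benjamini-Hochberg over all of them, at 0.05. Fold changes are Galloflavin over DMSO. Batches were compared with limma's F test, with treatment in the model. The code was first tested on simulated data. Alternatives were the batch block, other pseudocounts (0.5, 5), other filters (none, 5), median-of-ratios or quantile scaling, left-out libraries and batches, and edgeR 4.0.16 and DESeq2 1.42.0 on the recovered reads, which called 0 and 83 genes. The labels pair libraries by batch. Deviations from the group means correlated at 0.10, 0.08 and 0.49 within B1, B2 and B3. Across batches they correlated at 0.38 between Galloflavin B1 and DMSO B2 and at 0.24 between Galloflavin B2 and DMSO B1, above the values within B1 and B2, so the pairing there rests on the labels. Any pair of libraries differed by a chi-square per degree of freedom of 11.1 to 58.0, so none repeated another. The p-values measure the spread between pools.

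Members, lists and tests were chosen with earlier results of these data known. The ratios within pairs, the levels relative to replication genes and the ldha and pgk1 values were added after the data were seen. The rule named all polycomb and DNA methylation members, in the other classes the 4 with the lowest p in each direction, members called by any tool, 2 genes of each pathway list, and pairs with an unadjusted p under 0.05 in both copies, or in 1 with opposite signs. Other genes are named for their values.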

Additional observations from a re-analysis of the deposited data

How the results depend on the processing

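Over all 6 libraries, DESeq2 called 83 genes and 2 members, and with batch as a replicate block 149 genes and 1 member, against 0 in limma and edgeR with or without the block. Members lower at an unadjusted p under 0.05 numbered 12 with the block in limma and in edgeR and 9 with it in DESeq2, against 15. Members higher numbered 0 without a filter and 2 in edgeR, against 1. Genes that differed between batches numbered 1 with a pseudocount of 5, with median-of-ratios or with quantile scaling, 8 without a filter and 0 at a minimum mean of 5, against 5. The block changed no other call of a member.

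With 1 library left out, genes called in limma numbered 0, members lower 7 to 18, members higher 0 to 5 and genes that differed between batches 0 to 285. The median log2 fold change ranged over -0.048 to 0.16 for the demethylases, -0.19 to -0.048 for the methyltransferases, -0.22 to -0.019 for the polycomb genes, -0.38 to -0.22 for the DNA methylation genes and -0.13 to -0.099 for the phf genes. With batch B1, B2 or B3 left out, members lower numbered 9, 2 and 10 and members higher 0, 0 and 2. Without B2 the genes called numbered 1 and the phf median was -0.14, and without B3 the demethylase median was 0.16. The causes were not tested.

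Of 41 named members, 14 changed sign under some alternative. Over all 6 libraries 3 did: eed (0.0099 in edgeR, 0.010 in DESeq2) and, under quantile scaling, phf14 (-0.0032) and suz12b (-0.022). With 1 library left out the log2 fold change ranged over -0.26 to 0.013 for cdca7b, -0.13 to 0.53 for dnmt3aa, -0.13 to 0.15 for eed, -0.018 to 0.16 for kmt2cb, -0.066 to 0.19 for kmt2e, -0.082 to 0.12 for phf14, -0.057 to 0.12 for phf23b, -0.036 to 0.16 for setd4, -0.056 to 0.094 for suz12b, -0.19 to 0.26 for tet1, -0.25 to 0.043 for tet2 and -0.023 to 0.68 for tet3. Without batch B1 it was -0.25 for dnmt3aa, 0.17 for eed, 0.063 for ezh1, -0.030 for suz12b and -0.063 for tet1. Without batch B2 it was 0.019 for kdm2aa, -0.060 for kmt2e, -0.14 for phf14, -0.089 for phf23b, -0.038 for suz12b, 0.10 for tet2 and -0.010 for tet3. Without batch B3 it was -0.022 for setd4. Pooled fins allow no statement on which cells a value comes from, and 3 libraries a group limit every test. Counting error was not separated from the spread between pools, and the fewest reads in a library were 16 for tet1.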
